A study of Mus musculus with 16 samples.

Results

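The 10 genes described here carry the signal that DNA breaks and unpaired chromosomes send in a meiotic cell. They are the kinases Atm and Atr, the ATR partner Atrip, the ATR activator Topbp1, the mediators Mdc1 and Brca1, the effector kinases Chek1 and Chek2, and the clamp subunits Rad9a and Rad9b. They were chosen by name, and all 10 were found among the 55414 gene IDs of each deposited table. In the libraries made with the Ribo-Zero kit at postnatal day 16 (P16), 7 of the 10 passed the test and were lower in Ythdc2 conditional knockout (cKO) testis than in control testis, where 38.6% of all genes passed it and 19.9% passed it as lower. The change was largest for Chek1, at 0.526-fold, and Atm, at 0.627-fold. At P14 none of the 10 passed the test, where 1 of all 17270 genes did. In the NEBNext kit 1 cKO library was set against Cre control testis at P16. Chek1 was at 1.04-fold and Atm at 1.11-fold of the Cre controls. There Atrip, Topbp1, Mdc1 and Rad9b in the 1 cKO library lay below all 4 Cre controls, an order that 27.4% of all genes showed, and the other 6, Atm and Chek1 among them, lay within the Cre control range.

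RNA was sequenced from whole testes of mice in 16 libraries. Control, Cre control and cKO mice had been given tamoxifen (10 mg/ml) at P12 and again at P13. Ythdc2 encodes an RNA helicase that germ cells need for meiosis. There were 2 control, 2 Cre control and 3 cKO libraries at P14, and 2 control, 4 Cre control and 3 cKO libraries at P16. The labels give the genotypes only by these names, except that the deposited column names call the control libraries WT. They otherwise name neither the Cre line nor the alleles that the controls carry, and they do not say whether animals were pooled. Controls and cKO libraries 1 and 2 of each stage had their ribosomal RNA removed with Ribo-Zero components and were sequenced in 1 run. Cre controls and cKO library 3 of each stage were made with the NEBNext depletion kit and were sequenced in 2 other runs. Nothing says that the libraries of a group came from separate animals, so the p-values measure only the spread between these libraries, which may be technical.

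ATM is activated by double-strand breaks, which spermatocytes make in large numbers at the start of meiotic prophase, and ATR by single-stranded DNA coated with replication protein A. ATR reaches that DNA through ATRIP and is switched on by TOPBP1, which the RAD9-RAD1-HUS1 clamp recruits. In pachytene spermatocytes BRCA1 and TOPBP1 mark the unpaired axes of the X and Y chromosomes, and MDC1 spreads ATR and phosphorylated H2AX into the chromatin loops, where the sex chromosomes are then silenced. CHK1 and CHK2 are the kinases that pass the signal on to the cell cycle and to the p53 family.

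The deleted gene was checked first. Ythdc2 stood at 2666 and 2609 in the P16 controls and at 502 and 541 in cKO libraries 1 and 2 of the same table. In the P16 Cre control table it stood at 1711, 1392, 2633 and 1597 in the Cre controls and at 411, 446 and 226 in cKO libraries 1 to 3, so every cKO library lay below every control. Reads on genes ran from 22220565 to 27531529 in the Ribo-Zero libraries and from 14494867 to 23200252 in the NEBNext libraries. Germ cell markers were present in every library, and the 5 round spermatid markers summed to at most 0.44 CPM (TMM-scaled counts per library total), with 2 to 4 of them at 0 throughout a group.

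Because Atm, Brca1 and Chek1 moved together across the Ribo-Zero libraries, and because Topbp1 and Mdc1 each held an E2F word, the 250 bases upstream of the start of these 5 genes are shown, 5′ to 3′ on the gene's own strand, from RefSeq on build GRCm38.p6. Capitals mark matches, on either strand, to an E2F site (TTTCCCGC, TTTCGCGC or TTTGGCGC) or to a CCAAT box (CCAAT).

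Atm (chr9:53536672-53536921, minus strand): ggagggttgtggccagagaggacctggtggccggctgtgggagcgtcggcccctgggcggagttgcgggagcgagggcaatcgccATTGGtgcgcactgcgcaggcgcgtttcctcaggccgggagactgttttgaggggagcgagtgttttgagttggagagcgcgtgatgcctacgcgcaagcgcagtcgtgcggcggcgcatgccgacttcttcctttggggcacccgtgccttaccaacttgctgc

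Brca1 (chr11:101551956-101552205, minus strand): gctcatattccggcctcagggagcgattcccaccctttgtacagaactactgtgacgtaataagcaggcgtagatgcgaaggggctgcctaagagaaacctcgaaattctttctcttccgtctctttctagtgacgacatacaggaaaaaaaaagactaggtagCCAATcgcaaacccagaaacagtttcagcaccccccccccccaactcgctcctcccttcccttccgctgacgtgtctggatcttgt

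Chek1 (chr9:36726659-36726908, minus strand): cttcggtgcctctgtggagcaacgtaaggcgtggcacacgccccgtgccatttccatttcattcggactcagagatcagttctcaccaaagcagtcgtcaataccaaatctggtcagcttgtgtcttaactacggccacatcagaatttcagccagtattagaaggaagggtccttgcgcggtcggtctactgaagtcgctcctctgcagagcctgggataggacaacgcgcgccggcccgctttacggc

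Topbp1 (chr9:103305077-103305326, plus strand): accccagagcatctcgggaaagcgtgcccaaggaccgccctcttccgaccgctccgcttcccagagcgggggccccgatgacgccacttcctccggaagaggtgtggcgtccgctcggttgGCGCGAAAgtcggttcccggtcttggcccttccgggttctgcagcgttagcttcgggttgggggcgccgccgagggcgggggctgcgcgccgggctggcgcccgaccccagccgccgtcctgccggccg

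Mdc1 (chr17:35841248-35841497, plus strand): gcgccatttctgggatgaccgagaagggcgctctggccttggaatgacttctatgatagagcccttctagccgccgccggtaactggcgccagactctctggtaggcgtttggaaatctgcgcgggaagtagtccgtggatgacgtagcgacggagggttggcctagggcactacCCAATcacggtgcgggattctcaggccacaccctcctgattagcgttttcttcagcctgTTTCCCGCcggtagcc

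Promoters of 9 of the 10 genes were matched in that table: all but Rad9a. An E2F word was found in 3 of the 9 (Topbp1, Mdc1 and Chek2), against 1.53% of 32851 mouse promoters of the same length. Counted from the transcription start, it began at position -129 in Topbp1, -16 in Mdc1 and -152 in Chek2. Atm, Brca1 and Chek1 held none. A CCAAT box was found in 6 of the 9 promoters, against 33.8% of all. The STRA8 word CNCCTCAG was found in Atrip and in 6.42% of all promoters, and the cyclic AMP response element TGACGTCA in none of the 9 and in 1.55% of all. These matches describe letters in a window and show no binding.

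Levels per kilobase were set by the longest coding transcript of each gene, in CPM per kilobase. In the 2 P16 control libraries Atr was highest, at 128 and 131 CPM per kilobase, followed by Topbp1 at 69.4 ± 0.44 (SD, n = 2) and Mdc1 at 40.3 ± 0.51. Rad9b, the testis-expressed paralog of Rad9a, followed at 19.8 ± 1.0, then Atm at 15.2 ± 0.51, Brca1 at 13.7 ± 0.60, Atrip at 12.3 ± 0.68 and Chek1 at 8.17 ± 0.14. Chek2 at 4.07 ± 0.49 and Rad9a at 2.99 ± 0.24 were lowest. In these 2 libraries the ranges of neighbours in that order did not overlap. At P14 the order was the same at the top, but the range of Rad9b, with a mean of 14.5 CPM per kilobase, overlapped that of Brca1. The order at the top depended on the length used. The exons of all annotated Atr transcripts together span 23629 bases against 8102 for the longest coding one. On that length Atr was still first in P16 control, at 44.4 CPM per kilobase with Mdc1 second at 39.8. In P16 Cre control Mdc1 came first at 51.2 and Atr second at 31.4.

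**Figure D1:**
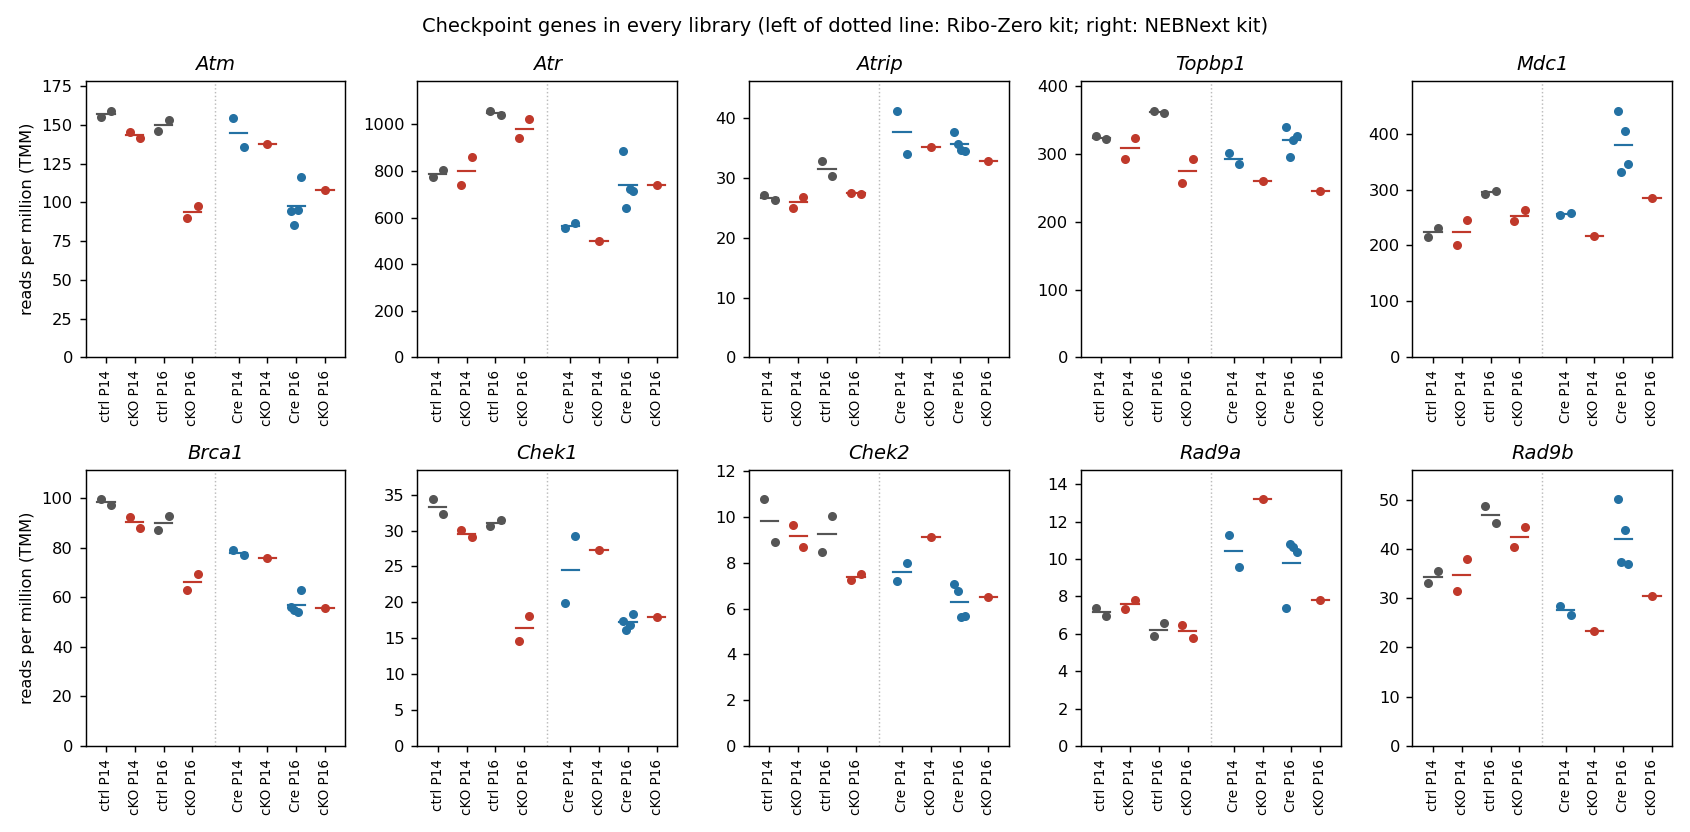
Level of each of the 10 genes in all 16 libraries, in CPM on a linear axis that starts at 0; points are libraries, horizontal lines are group means, grey is control, blue is Cre control and red is cKO, and the dotted line parts the kits, whose levels are scaled apart. In the Ribo-Zero kit Atm, Brca1 and Chek1 are low in the cKO P16 libraries alone, whereas in the NEBNext kit they are low in both P16 groups.

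The first question was how cKO and control testis differed in these genes at P16 within the Ribo-Zero kit, where both groups share a table and a sequencing run. Values in this comparison are the deposited reads divided by a size factor, and changes are log2(value + 1) differences, cKO minus control, tested with limma and adjusted by Benjamini-Hochberg over all genes. A gene is termed called when its adjusted p is under 0.05. Of the 10 genes 7 were called, all lower, while 38.6% of all 17986 genes tested were called and 19.9% were called lower. The median change of the 10 was -0.27, against -0.0005 over all genes. In 9 of the 10 both cKO libraries lay below both controls, which held for 35.4% of all genes. In bulk testis, fewer cells of a type and less RNA per cell cannot be told apart.

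Of the apical kinases, Atm was the one that fell. Atm measured 3776 and 3950 in control and 2345 and 2501 in cKO, without overlap. The change was -0.67 (SE 0.049, limma adjusted p = 1.03e-06). Atr measured 27388 and 26819 in control and 24564 and 26265 in cKO. Its cKO values were also below both controls, but the change of -0.09 (SE 0.043) was not called (limma adjusted p = 0.103). Antisense RNAs that overlap Atr held at most 0.329% of its reads. Trex1, which overlaps Atrip on the same strand, held 0 reads in every library. How reads that lie in both genes were counted is not given, so the 0 does not tell whether Trex1 was expressed.

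The genes that bring ATR to DNA and switch it on changed by less than Atm. Topbp1 measured 9410 and 9305 in control and 6702 and 7506 in cKO, a change of -0.40 (SE 0.051, limma adjusted p = 6.85e-05). Atrip measured 847 and 781 against 716 and 701, a change of -0.20 (SE 0.068, limma adjusted p = 0.0354). The 2 clamp subunits were not called. Rad9b, at 1257 and 1165 against 1048 and 1142, changed by -0.15 (limma adjusted p = 0.0938). Rad9a, at 151 and 168 against 168 and 148, overlapped between the groups and changed by -0.01 (limma adjusted p = 0.946). Ppp1ca lies antisense to Rad9a and held 3229 to 5865 reads per library, 1903% to 3341% of the reads of Rad9a. Pptc7 lies antisense to Rad9b and held 115% to 273% of its reads. The strand setting of the counting is not given in the sources used here, so the values of both Rad9 genes could hold reads of these neighbours.

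Both mediators fell. Brca1, which marks unpaired axes and recruits ATR there, measured 2251 and 2390 in control and 1638 and 1786 in cKO, a change of -0.44 (SE 0.057, limma adjusted p = 7.88e-05). Mdc1, which carries the signal along chromatin, measured 7566 and 7685 against 6342 and 6751, a change of -0.22 (SE 0.043, limma adjusted p = 0.00157). For both genes the gap between the groups was wider than the gap between the libraries of a group.

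The effector kinases parted in size. Chek1, the main target of ATR, measured 792 and 809 in control and 381 and 463 in cKO. This was the largest fall of the 10 genes, -0.93 (SE 0.090, limma adjusted p = 8.73e-06). Chek2, the target of ATM, measured 218 and 258 against 188 and 192, a change of -0.32 (SE 0.118, limma adjusted p = 0.0472). Chek2 and Atrip were the calls nearest to the threshold, and each lost its call in DESeq2, at adjusted p values of 0.191 for Chek2 (range over 14 alternatives 0.016 to 0.461) and 0.157 for Atrip (0.0087 to 0.293). A fit over both kits with the kit as a covariate ended the calls of Atm (-0.31, limma adjusted p = 0.174), Chek1 (-0.50, limma adjusted p = 0.0699) and Brca1 (-0.27, limma adjusted p = 0.0722) and kept those of Topbp1 and Mdc1, whereas eBayes without trend ended those of Topbp1 (limma adjusted p = 0.0614), Mdc1 (0.0964) and Brca1 (0.0534). The call of Atrip also ended without control library 1, control library 2 or cKO library 2, and that of Chek2 without control library 2 or either cKO library. Chek2 also lost its call with edgeR (adjusted p = 0.051), TMM scaling (limma adjusted p = 0.0501) and a pseudocount of 10 (limma adjusted p = 0.0509). The calls of both genes ended with no filter, with eBayes without trend and with the kit as a covariate.

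Markers of cell types moved with these changes. The summed level of 7 spermatogonial markers was 639 to 646 CPM in control and 490 to 506 in cKO, with 6 of 7 called lower. That of 7 early meiotic prophase markers, among them Dmc1, Spo11 and Prdm9, was 1419 to 1479 CPM in control and 996 to 1078 in cKO, with 6 of 7 called lower. Markers of pachytene and later spermatocytes summed to 1875 to 1912 CPM in control and 2013 to 2236 in cKO, with 5 of 8 called higher and 1 lower. All 5 macrophage markers were called higher, with sums of 95.1 to 100.0 CPM in control and 128 to 131 in cKO, and 4 of 7 Sertoli cell markers were called higher. The part of these shifts in the changes of the 10 genes was not tested.

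**Figure D2:**
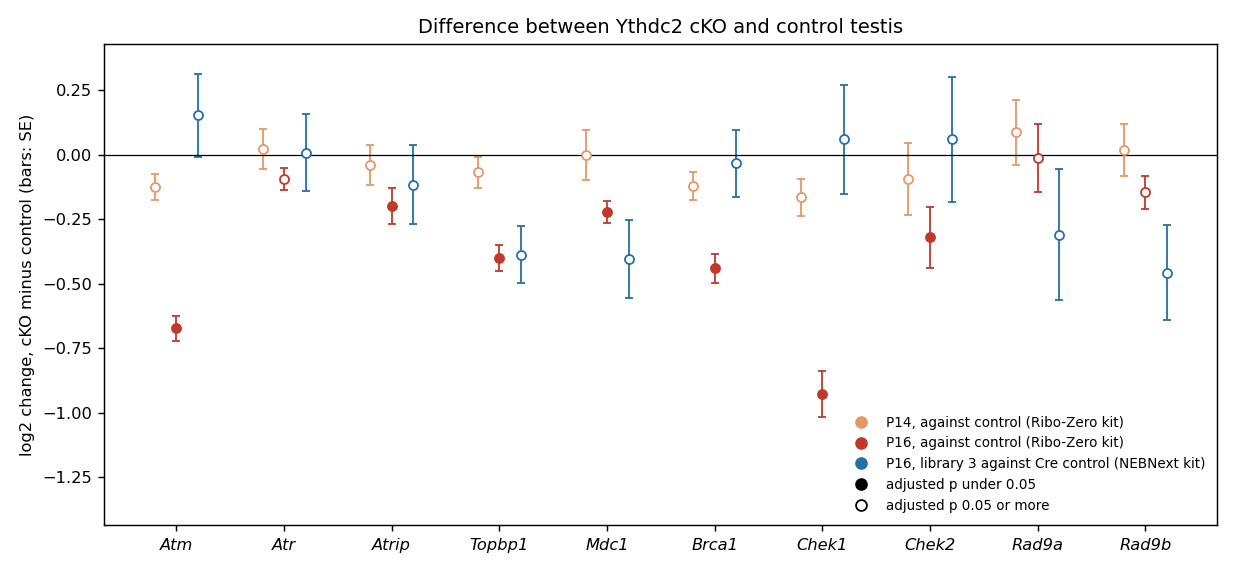
Log2 change between cKO and control testis for each of the 10 genes, with standard errors; orange is P14 and red P16 against control in the Ribo-Zero kit, blue is cKO library 3 against the Cre controls at P16 in the NEBNext kit, and filled points passed the test. Chek1 and Atm lie at -0.93 and -0.67 in red and near 0 in blue, while Topbp1 lies at -0.40 in red and -0.39 in blue.

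At P14, the day after the last tamoxifen dose, the same comparison gave 0 calls among the 10 genes, as 0.00579% of all genes were called, that is 1 gene of 17270, Ythdc2 itself. The count was also 0 of 10 with edgeR and with DESeq2. At an unadjusted p under 0.05 there was 1 of the 10, Atm, at 3740 and 3834 in the controls against 3525 and 3417 in the cKO libraries, a change of -0.13 (SE 0.050). Chek1, at 826 and 776 against 725 and 702, and Brca1, at 2393 and 2339 against 2233 and 2121, were also lower in both cKO libraries. These 3 genes were the ones of the 10 that lay below both controls, which held for 14.5% of all genes. Atr measured 18629 and 19370 in control and 17919 and 20764 in cKO, which lay on either side of them.

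The stages were then compared in their cKO effect, by an interaction term fitted to log2 CPM of the 8 Ribo-Zero libraries. Of the 10 genes 2 were called, Atm and Chek1, both lower, while 8.45% of all 17641 genes were called and 5.46% were called lower. The effect on Atm was lower at P16 than at P14 by -0.54 (SE 0.073, limma adjusted p = 0.00354) and that on Chek1 by -0.76 (SE 0.134, limma adjusted p = 0.0127). Topbp1 (-0.33, limma adjusted p = 0.0561) and Brca1 (-0.32, limma adjusted p = 0.0526) came close to the threshold. The value was negative for all 10 genes, with a median of -0.22 against -0.02 over all genes. The call of Chek1 ended when control P14 library 2, control P16 library 1 or control P16 library 2 was left out, at limma adjusted p values of 0.0539 to 0.0682. Without cKO P14 library 1 or cKO P16 library 2, 4 of the 10 were called, Topbp1 among them at -0.40 and -0.42, while 18% and 4.21% of all genes were called.

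The change from P14 to P16 shows which of the groups moved. In control testis 4 of the 10 genes were called, all higher at P16, where 20.9% of all genes were called and 14.2% were called higher. Atr went from 774 and 804 CPM at P14 to 1060 and 1040 CPM at P16, a change of 0.41 (SE 0.068, limma adjusted p = 0.00266). Rad9b rose by 0.45 (limma adjusted p = 0.00836), Mdc1 by 0.40 (limma adjusted p = 0.00835) and Atrip by 0.24 (limma adjusted p = 0.0386). Atm, at 155 and 159 CPM at P14 and 146 and 153 CPM at P16, changed by -0.07 and Chek1 by -0.10, neither called. The call of Atrip ended without any 1 of the 4 control libraries, that of Rad9b without library 1 of either stage, and that of Mdc1 without P14 library 1 or either P16 library, while Atr stayed called in each case. Over the same days all 8 markers of pachytene and later spermatocytes rose.

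In cKO testis of the Ribo-Zero kit 5 of the 10 genes were called, 2 higher and 3 lower, against 31.5% of all genes, with 16.3% higher and 15.2% lower. Atr rose by 0.30 (SE 0.068, limma adjusted p = 0.00907) and Rad9b by 0.29 (limma adjusted p = 0.041). Chek1 fell from 30.0 and 29.1 CPM to 14.7 and 18.1 CPM, a change of -0.86 (SE 0.095, limma adjusted p = 0.000227). Atm fell from 146 and 142 CPM to 90.1 and 97.4 CPM, a change of -0.62 (SE 0.052, limma adjusted p = 6.43e-05). Brca1 fell from 92.3 and 87.9 CPM to 62.9 and 69.5 CPM, a change of -0.45 (SE 0.061, limma adjusted p = 0.000639). The call of Rad9b ended without cKO P14 library 1 or either cKO P16 library, and that of Atr without cKO P16 library 2. So the P16 difference of Atm, Brca1 and Chek1 in this kit went with a fall in the cKO groups and with levels in control that differed little between the stages.

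In Cre control testis of the NEBNext kit 4 of the 10 genes were called, 2 higher and 2 lower, against 11.6% of all genes, with 8.9% higher and 2.72% lower. Mdc1 rose by 0.56 (SE 0.116, limma adjusted p = 0.0113) and Rad9b by 0.60 (SE 0.143, limma adjusted p = 0.0222). Atm fell by 0.57 on the log2 scale (SE 0.124, limma adjusted p = 0.0139), from 154 and 136 CPM at P14 to 94.2, 85.6, 94.9 and 116 CPM at P16. Brca1 fell by 0.46 on the log2 scale (SE 0.101, limma adjusted p = 0.0158), from 78.9 and 77.0 CPM to 56.0, 54.8, 54.2 and 62.9 CPM. Chek1 was at 19.9 and 29.2 CPM at P14 and at 17.4, 16.2, 16.9 and 18.4 CPM at P16, below both P14 libraries, with a change of -0.49 that was not called (limma adjusted p = 0.0832). In Cre controls, then, Atm and Brca1 were lower at P16 in mice not labelled as knockouts. Both P14 libraries and P16 library 1 shared a sequencing run, while P16 libraries 2 to 4 came from another. Stage and run thus changed together for most of these libraries, and this fit does not separate them. These calls were sensitive to single libraries. Without Cre control P16 library 3 none of the 10 was called, while 5.57% of all genes were. The changes moved little (Atm -0.56, Brca1 -0.43, Mdc1 0.53 and Rad9b 0.58). Without Cre control P14 library 1, which left 1 library at P14, Atm changed by -0.48, Brca1 by -0.44 and Chek1 by -0.77. There Mdc1 changed by 0.54 and Rad9b by 0.64. Within 1 sequencing run, with 1 library at P16, Atm changed by -0.57, Brca1 by -0.43, Rad9b by 0.91 and Atr by 0.69. Without Cre control P16 library 2 Atr was called as well (0.44, limma adjusted p = 0.0368), while 8.1% of all genes were called.

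A test added after the values were seen asked whether the stage change differed between Cre control and control. Kit, sequencing run and control type changed together in it. None of the 10 genes was called, as 0% of all 19821 genes were, and edgeR also gave 0 calls. Before adjustment 2139 genes had a p under 0.05, 4 of the 10 among them. The differences, Cre control minus control, were -0.55 for Atm (limma adjusted p = 0.301), -0.37 for Brca1 (limma adjusted p = 0.314), -0.36 for Atrip (limma adjusted p = 0.379) and -0.43 for Chek1 (limma adjusted p = 0.462). Leaving out Cre control P14 library 2 gave 1 call, Atrip at -0.51 (limma adjusted p = 0.0465), and leaving out Cre control P16 library 4 gave 1, Atm at -0.64 (limma adjusted p = 0.0499).

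**Figure D3:**
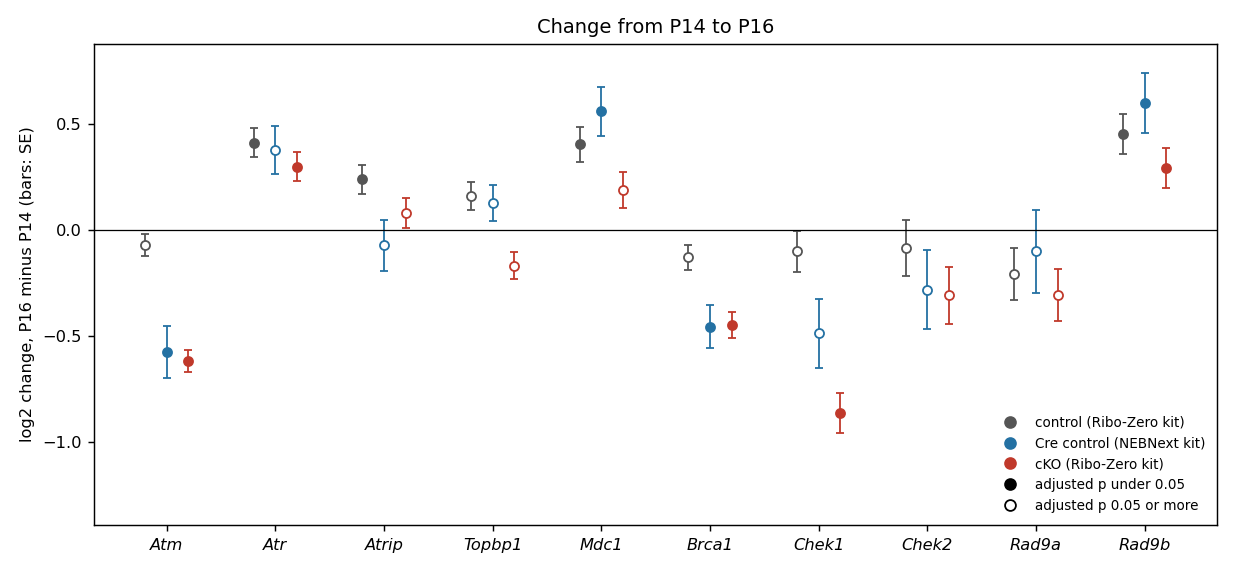
Log2 change from P14 to P16 for each of the 10 genes, with standard errors, in control (grey) and cKO (red) of the Ribo-Zero kit and in Cre control (blue) of the NEBNext kit; filled points passed the test. Atr, Mdc1 and Rad9b are above 0 in every group, whereas Atm and Brca1 are near -0.6 and -0.45 in Cre control and cKO and near -0.1 in control.

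The Cre control tables set all 3 cKO libraries against the Cre controls, but libraries 1 and 2 are the same as in the control tables and differ from every Cre control in kit. At P16 the test called 1 of the 10 genes, Mdc1, which was lower, while 9.07% of all genes were called and 4.77% were called lower. Mdc1 stood at 8659, 6499, 8020 and 6812 in the Cre controls and at 5194, 5565 and 5500 in cKO libraries 1 to 3. All 3 cKO libraries lay below all 4 controls, and the change was -0.46 (SE 0.113, limma adjusted p = 0.0481). That call ended under most alternatives, with adjusted p values from 0.00305 to 0.202, among them edgeR (0.0626), the kit as a covariate (0.182) and each of 6 libraries left out. Without cKO library 3, the one cKO library of the same kit, 5 of the 10 were called, as were 49.5% of all genes: Mdc1, Atrip and Rad9a lower and Atr and Brca1 higher. Atrip also lay below all controls in every cKO library, at 738, 701, 689 and 680 against 587, 578 and 633, and was not called (limma adjusted p = 0.0855). Such a separation held for 16.9% of all genes.

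Other genes in that table split by kit. Atr stood at 17374, 12616, 14348 and 14091 in the Cre controls, at 20120 and 21653 in cKO libraries 1 and 2 of the Ribo-Zero kit, and at 14261 in cKO library 3 of the NEBNext kit. Library 3 lay inside the range of the Cre controls, and the other 2 above it. At P14 none of the 10 was called, as 0% of all genes were. There Atr stood at 10166 and 10498 in the Cre controls, at 14507 and 16895 in cKO libraries 1 and 2 and at 9072 in library 3. Without library 3, 3 of the 10 were called at P14, as were 34.9% of all genes, and all 3 were higher in cKO: Atr (0.60), Brca1 (0.31) and Rad9b (0.44).

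Within the NEBNext kit, cKO library 3 was set against the 4 Cre controls at P16, in a fit that assumes that the lone library varies like the others. None of the 10 genes was called, against 0.00522% of all genes, which is 1 gene of 19172, Ythdc2. The 3 largest changes of the 10 were falls, in Topbp1, Mdc1 and Rad9b. Topbp1 stood at 245 CPM in cKO library 3 and at 340, 295, 321 and 327 CPM in the Cre controls, a change of -0.39 (SE 0.110, limma adjusted p = 0.252). Mdc1 stood at 286 CPM against 441, 331, 404 and 345 CPM, a change of -0.40 (SE 0.150, limma adjusted p = 0.319). Rad9b stood at 30.4 CPM against 50.04, 37.3, 43.8 and 36.9 CPM, a change of -0.46 (SE 0.185, limma adjusted p = 0.344). For these 3 genes and for Atrip, at 32.9 CPM, the cKO library lay below every Cre control, as it did for 27.4% of all genes. Cre control library 1 shares the sequencing run of cKO library 3, while Cre controls 2 to 4 came from another run. Within the 1 run the changes were -0.54 for Topbp1, -0.69 for Mdc1, -0.79 for Rad9b and 0.13 for Atm, and none of the 10 was called.

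Atm and Chek1 did not show that order. Atm stood at 108 CPM in cKO library 3, between the lowest and the highest Cre control, with a change of 0.15 (SE 0.160, limma adjusted p = 0.711). Chek1 stood at 17.9 CPM, also inside the range of the Cre controls, with a change of 0.06 (SE 0.210, limma adjusted p = 0.924). Brca1 changed by -0.03 (SE 0.131, limma adjusted p = 0.934). From P14 to P16, cKO library 3 itself went down by -0.35 for Atm, -0.60 for Chek1 and -0.45 for Brca1 and up by 0.57 for Atr, with 1 library a stage and no test. At P14 none of the 10 was called within the NEBNext kit, as 0% of all genes were, and none passed an unadjusted p under 0.05 in limma or edgeR. Summed early meiotic prophase markers at P16 were 760 to 1048 CPM in the Cre controls and 720 CPM in cKO library 3. Macrophage markers were 93.7 to 119.7 CPM and 135 CPM, and Sertoli cell markers 908 to 1121 CPM and 1174 CPM. Spermatogonial markers, lower in cKO in the Ribo-Zero kit, were 577 to 759 CPM and 712 CPM. Markers of pachytene and later spermatocytes, higher in cKO in that kit, were 1620 to 2981 CPM and 1672 CPM. For spermatogonial and pachytene markers, then, cKO library 3 lay inside the Cre control range. The part of the markers in the values of the 10 genes was not tested.

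The difference of the P16 effect between the kits, NEBNext minus Ribo-Zero, was tested directly, also after the values were seen. None of the 10 genes was called, against 0.298% of all genes. The effect was higher by 0.80 for Atm (SE 0.174, limma adjusted p = 0.0784), by 0.96 for Chek1 (SE 0.225, limma adjusted p = 0.102) and by 0.38 for Brca1 (SE 0.128, limma adjusted p = 0.283). For Topbp1 the difference was -0.01 (SE 0.122, limma adjusted p = 0.987) and for Mdc1 -0.21 (SE 0.183, limma adjusted p = 0.758). Without Cre control P16 library 4, which had the highest Atm level of the 4, the difference for Atm was called (limma adjusted p = 0.00678, range over 9 alternatives 0.00678 to 0.3). Kit, sequencing run, control type and cKO library change together here and cannot be told apart.

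The other genes of the pathway were taken as 6 lists of 57 genes in all, all of them tested. At P16 in the Ribo-Zero kit 36 of the 57 were called, 34 lower and 2 higher, which is 63.2% against 38.6% of all genes, and their median change was -0.20. Of the 12 genes that load the clamp, coat single-stranded DNA or relay ATR to CHK1, 9 were called lower and none higher. The median of the 12 was -0.39. Tipin fell from 2007 and 2022 to 968 and 1116, a change of -0.95 (SE 0.066). Its partner Timeless changed by -0.67 (SE 0.061) and Clspn, whose product claspin presents CHK1 to ATR, by -0.77 (SE 0.066). Within the NEBNext kit, with 1 cKO library, Tipin changed by -0.34, Timeless by -0.42 and Clspn by -0.08. Among the clamp's own partners Rad1 fell by 0.27 on the log2 scale (limma adjusted p = 0.0102), and Hus1 changed by -0.02 (limma adjusted p = 0.851). Rad1 and Hus1 were chosen after their values were seen.

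Of the 9 genes that sense or mark breaks 5 were called lower. H2afx, which encodes the histone that ATM and ATR phosphorylate, fell most of all 57, from 26541 and 27806 to 9156 and 10765, a change of -1.45 (SE 0.061, limma adjusted p = 9.06e-09). In the Cre control table at P16 H2afx was also called lower, at -1.19 (limma adjusted p = 0.0367). Within the NEBNext kit alone it changed by -0.65 and was not called (limma adjusted p = 0.226). Of 10 genes of the BRCA1 complexes 7 were called lower. Brip1, the helicase that binds BRCA1, went from 1277 and 1269 to 731 and 685, a change of -0.85 (SE 0.062), and changed by 0.04 within the NEBNext kit (limma adjusted p = 0.942). Of 7 genes of asynapsis and the sex body 6 were called lower, with a median of -0.26. Of 8 genes of kinase assembly and related kinases 4 were called lower.

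The 11 effector genes moved in both directions, with 3 called lower and 2 called higher. The 2 were the only called rises among the 57. Cdkn1a, which encodes the cell cycle inhibitor p21, measured 52.0 and 60.5 in control and 92.2 and 101.5 in cKO, a change of 0.78 (SE 0.180, limma adjusted p = 0.00441). Plk1, a mitotic kinase that ends checkpoint arrest, changed by 0.27 (SE 0.066, limma adjusted p = 0.00578). Within the NEBNext kit, with 1 cKO library, Cdkn1a changed by 0.12 and Plk1 by 0.74. At P14 none of the 57 was called in this kit. In the interaction 16 of the 57 were called, 15 lower and 1 higher, which is 28.1% against 8.45% of all genes. Against Cre control at P16, all 3 cKO libraries used, 7 were called, 6 lower and 1 higher, which is 12.3% against 9.07%, and within the NEBNext kit none.

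**Figure D4:**
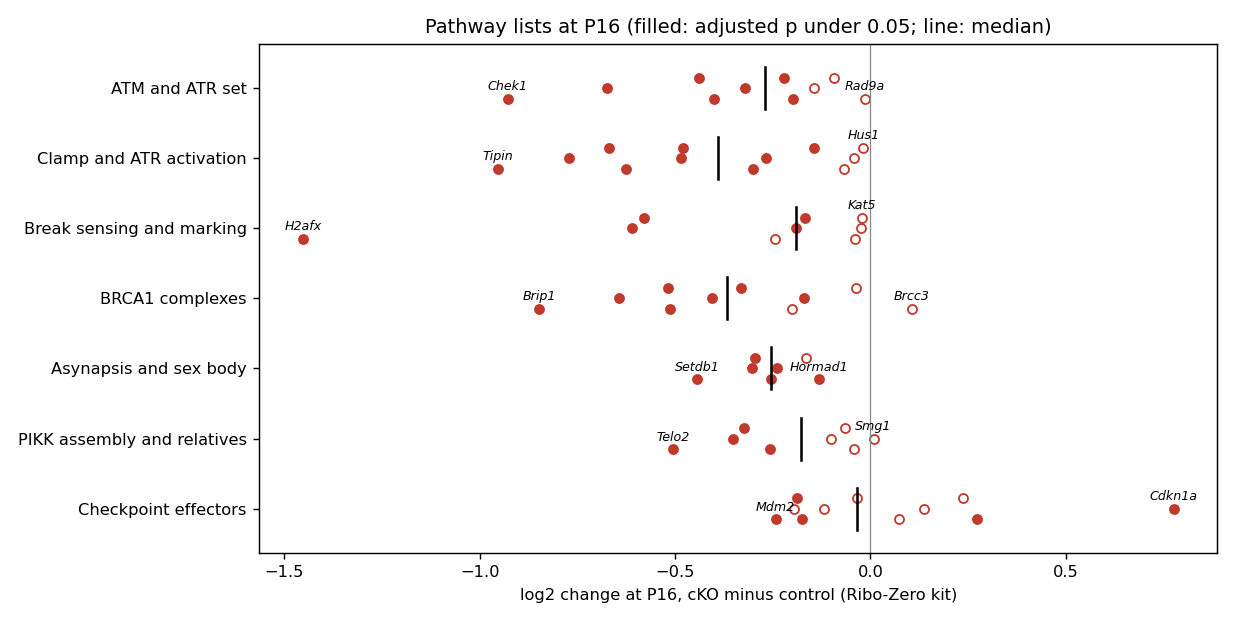
Log2 change at P16 in the Ribo-Zero kit, cKO minus control, for the 10 genes (top row) and for the 57 other genes of the pathway by list; each point is a gene, filled points passed the test, vertical lines are medians and the lowest and highest gene of each list are named. The points of 5 of the 6 lists lie mostly below 0, with H2afx at -1.45, and the effectors lie on both sides, with Cdkn1a at 0.78.

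Since Atr, Brca1, Topbp1 and Mdc1 act on the silenced sex chromosomes, X-linked genes were counted beside them. From P14 to P16 in control testis 122 of 686 X-linked genes were called lower and 1 higher, so that 17.8% were lower, against 6.27% of autosomal genes, with a median of -0.19 against 0.0009. In cKO testis of the same kit 190 were called lower and 19 higher, so that 27.7% were lower, against 14.7% of autosomal genes, with a median of -0.16. At P16 in that kit 167 of 686 X-linked genes were called higher and 135 lower in cKO, so that 24.3% were higher, against 18.4% of autosomal genes. Against Cre control at P16, 82 of 802 were higher and 13 lower, 10.2% higher against 3.97% of autosomal genes. Within the NEBNext kit no X-linked gene was called, and their median change was 0.15 against -0.0007 for autosomal genes. The relation of these counts to the levels of the 10 genes was not tested.

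Across the 8 Ribo-Zero libraries the genes with at least 10 CPM fell into patterns, given here as a description over libraries that share stage and genotype. Atm, Brca1 and Chek1 followed each other with Pearson correlations of 0.985 to 0.992. Atr, Mdc1 and Rad9b did so with 0.950 to 0.990. Atm and Atr were related by -0.39. Among 10260 genes with a mean of at least 10 CPM, the 3 whose log2 CPM was most like that of Atm were Cecr2 at 0.998, Dck at 0.997 and Ints8 at 0.997. Over the 8 NEBNext libraries the same pairs gave 0.975, 0.885 and 0.623. Those most like Atr were Acot7 at 0.998, Mllt10 at 0.998 and Cfap298 at 0.997, and over the NEBNext libraries 0.864, 0.885 and 0.820.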

How the data were processed

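Testis RNA of 16 libraries was analysed from 4 tables, each holding 1 stage and 1 control type. The authors deposited a signal: each gene's read count was scaled by a size factor that holds within its table. Per the submitters' processing notes Trim Galore, STAR, HTSeq and DESeq2 were used with build GRCm39. The strand setting of the counting is not given in the sources used here. In all 20 columns 100% of the values were whole multiples of 1 read within 0.1 reads, so reads were recovered. Levels are not comparable between tables. Names came from GENCODE M21, which gave one to 52081 of 55414 IDs.

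Within a table, limma 3.58.1 (R 4.3.3, eBayes with trend) was run on log2(deposited value + 1) for genes at 10 or more in at least 2 libraries. This scale understates the change of low genes. Stage changes, the interaction and comparisons within the NEBNext kit used limma on TMM-scaled log2 CPM with a prior count of 1, from recovered reads at 0.5 CPM or more in 2 libraries. P-values were adjusted by Benjamini-Hochberg over all genes. edgeR 4.0.16 and DESeq2 1.42.0 on recovered reads were alternatives. Scripts were tested on simulated data. All 10 genes passed every filter on low values. The 10 genes and the lists were chosen with earlier results of these data known. From the lists, the called genes that rose most (at most 5) and fell most (at most 5) at P16 against control are named, and the 3 genes most correlated with Atm and with Atr. Replicate numbers were shared between groups without pairing the samples. Promoter sequences ran with the gene's strand in 9 of 9 cases, checked against GENCODE transcripts.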

Additional observations from a re-analysis of the deposited data

Results flagged for a closer look

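In the 4 Cre control P16 libraries, 10 gene levels were examined for a library far from the others, and chance flags about 1 in 20. Brca1 was at 1099, 1076, 1075 and 1240, so that library 4 stood apart by 0.854 of the whole range. Rad9a was at 144, 211, 210 and 204, so that library 1 stood apart by 0.894 of the range.

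The cKO effect of 2 genes differed between P14 and P16 in the Ribo-Zero kit, by a test of the interaction in limma. The difference was -0.545 for Atm (adjusted p = 0.00354) and -0.76 for Chek1 (adjusted p = 0.0127). Both genes were lower in both cKO libraries at each stage, by more at P16.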

How the results depend on the processing

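No change of the 10 genes that was called reversed under any of the alternatives run. Over the alternatives for the 10 genes and their comparisons, 1163 values kept their side of the threshold, 64 lost a call and 33 gained one. Of the 10 genes, 7 were called in cKO against control at P16, while 38.6% of all genes were called. With both kits and the kit as a covariate 2 were called, while 14.2% of all genes were. With eBayes without trend 2 were called, while 10% of all genes were. The range was 5 to 7 with a library left out. In cKO against Cre control at P16, 1 was called, and 0 with TMM scaling, eBayes without trend, edgeR, the kit as a covariate, no filter, a pseudocount of 0.1 or the replicate block, and 0 to 5 with a library left out, 5 being without cKO library 3. Over those settings 0% to 8.95% of all genes were called, against 9.07% in the main fit. With a library left out 0% of all genes were called, or 49.5% without cKO library 3. With the replicate number as a block, 4 were called in cKO against Cre control at P14 and 4 in the interaction, in place of 0 and 2, while 38.3% and 13.3% of all genes were called. Same-numbered libraries did not deviate together in every pair, so the numbers were not taken as pairs. With a library left out, counts ran from 0 to 3 in cKO against Cre control at P14, 1 to 4 in the interaction, 1 to 5 in the control stage change (4 with all libraries, 1 to 3 without a control library) and 0 to 5 in the Cre control stage change, where 1 sequencing run gave 2. They ran from 0 to 1 in both tests added after seeing the data. A library left alone in its group was assumed to vary like the others. The share of all genes called also shifted with these settings, so the counts alone do not show how stable the 10 genes were. The causes of these shifts were not tested. The groups held 1 to 4 libraries of a kit, and Chek2 and Rad9a had the lowest levels and the widest standard errors in cKO against control at P16.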
